A study of Mus musculus with 12 samples.

Results

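Glycolysis breaks glucose down to pyruvate in the cytosol, and the genes followed here encode 10 proteins of that route. Slc2a1 brings glucose into the cell, Hk1 and Hk2 are hexokinases, Pfkl and Pfkp are phosphofructokinases, and Aldoa, Pgk1 and Pkm act further down. Ldha and Pdk1 act on the pyruvate that is made. The genes were taken by symbol from the deposited table of raw read counts. Each of the 10 symbols matched a single row of 25210, and all 10 passed the filter on low counts, which left 15316 genes.

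The libraries came from mammary organoids, small clusters of gland epithelium grown in a gel, of virgin FVB/N females aged 8 to 11 weeks. For 7 days the organoids sat in growth-factor reduced Matrigel with minimal medium and received either dimethyl sulfoxide (DMSO, the vehicle) or 1, 1.5 or 3 µM of CHIR99021. This compound is an inhibitor of GSK3, and the labels give activation of WNT/CTNNB1 signalling as its purpose. Cultures 1, 2 and 3 came from 3 animals, and each was split over the 4 treatments, for a total of 12 libraries with 3 in each group. The labels name no genotype beyond the strain, and tag cultures 1, 2 and 3 as med, min and max without saying what these words stand for.

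In glycolysis, hexokinase traps glucose in the cell as glucose 6-phosphate, phosphofructokinase makes the committed step, and phosphoglycerate kinase and pyruvate kinase yield ATP. Pyruvate can then enter the mitochondrion through the pyruvate dehydrogenase complex, which PDK1 inhibits by phosphorylation, or become lactate through lactate dehydrogenase. Many genes of the route are known targets of the hypoxia-inducible factor HIF1 and of MYC, and in the mammary gland glucose taken up by GLUT1, the product of Slc2a1, also feeds lactose synthesis.

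Promoter sequences are shown for the genes with the 3 largest rises at 3 µM, Pgk1, Slc2a1 and Pdk1, and for Ldha, whose window held the most matches. They are from RefSeq (GRCm38.p6, plus strand) and run from 250 bases before to 50 bases after a transcription start. Capitals mark ACGTG and GCGTG, the cores of the hypoxia response element, on either strand (CACGT and CACGC are their reverse complements).
Pgk1, chrX:106186850-106187149: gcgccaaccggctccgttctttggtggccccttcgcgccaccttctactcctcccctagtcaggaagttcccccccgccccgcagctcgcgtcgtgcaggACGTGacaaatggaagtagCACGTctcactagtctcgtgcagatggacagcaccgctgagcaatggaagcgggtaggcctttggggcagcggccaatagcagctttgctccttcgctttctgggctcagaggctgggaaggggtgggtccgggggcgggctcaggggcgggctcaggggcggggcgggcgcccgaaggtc
Slc2a1, chr4:119108495-119108794: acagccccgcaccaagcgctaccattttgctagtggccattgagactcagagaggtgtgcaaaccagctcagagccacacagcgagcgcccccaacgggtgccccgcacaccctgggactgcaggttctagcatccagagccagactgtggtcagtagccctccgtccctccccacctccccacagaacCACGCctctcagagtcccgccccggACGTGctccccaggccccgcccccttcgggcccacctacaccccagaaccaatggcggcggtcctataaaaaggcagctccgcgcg
Pdk1, chr2:71872974-71873273: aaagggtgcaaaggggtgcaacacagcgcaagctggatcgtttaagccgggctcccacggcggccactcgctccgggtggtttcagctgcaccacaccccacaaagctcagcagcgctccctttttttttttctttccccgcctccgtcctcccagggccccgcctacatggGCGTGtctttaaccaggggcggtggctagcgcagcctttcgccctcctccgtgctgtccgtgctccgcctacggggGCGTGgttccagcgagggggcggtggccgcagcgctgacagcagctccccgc
Ldha, chr7:46845554-46845853: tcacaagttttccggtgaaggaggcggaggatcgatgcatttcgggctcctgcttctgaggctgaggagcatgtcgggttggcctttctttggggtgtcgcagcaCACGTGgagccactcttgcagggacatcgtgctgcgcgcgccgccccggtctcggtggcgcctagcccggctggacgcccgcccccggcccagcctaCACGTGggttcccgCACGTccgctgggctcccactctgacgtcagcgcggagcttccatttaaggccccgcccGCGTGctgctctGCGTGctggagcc

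RefSeq gave 16 such windows for the 10 genes, since several genes have more than 1 start. ACGTG was found in 8 of the 16 windows, which belong to 7 genes, and in 19.6% of all 32851 windows of the same length. GCGTG was found in 7 of 16 windows, of 6 genes, and in 32.4% of all windows. One or the other stood in 12 of 16 windows, against 43.8% of all windows. Each of the 10 genes had at least 1 such window, but these shares are by window and have no counterpart by gene. The Aldoa windows that start at 126799129 and 126799205 overlap and hold the same ACGTG, counted in both. Pdk1 and Ldha also have a window that is not printed. That of Pdk1 held 0 matches to either core, and that of Ldha held GCGTG. The windows of these genes were richer in G and C, with a median of 64.8% against 52.7%, and both motifs are rich in these bases. CACGTG, the E-box that MYC can bind and which contains ACGTG, was found in 1 of 16 windows, that of Ldha printed here, and in 7.2% of all. The TCF/LEF cores CTTTGAT and CTTTGTT were in 0 of 16 windows, and in 3.7% and 5.9% of all windows. These matches describe the letters of the windows only, and binding was not measured.

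Library totals ran from 10.1 to 24.5 M counts, and mitochondrial genes took 1.82% to 3.09% of them. The lowest count of any of the 10 genes in any library was 374, for Pdk1 in the DMSO library of culture 2. Levels below are counts per M counts (CPM) on library sizes scaled by TMM, edgeR's trimmed mean method. The 6 epithelial markers Epcam, Cdh1, Krt8, Krt18, Krt5 and Krt14 summed to 3269 to 5640 CPM in DMSO and to 16283 to 33005 CPM at 3 µM, where 2 of them rose, Krt5 and Krt14, and 2 fell, Krt8 and Krt18. Markers of other cells of the gland were present as well, and 0 markers of these stromal lists were at 0 throughout a group. From DMSO to 3 µM the range of the sum went from 3375 to 8990 CPM to 36.2 to 237.4 CPM for 5 adipocyte genes, all 5 of which fell. For 7 fibroblast genes it went from 1624 to 20508 CPM to 175.3 to 4569 CPM, and 0 were called in the fit without the replicate block. Within cultures 1, 2 and 3 the fibroblast sum fell from 1624, 7372 and 20508 CPM to 175.3, 971.6 and 4569 CPM. For 6 macrophage and leukocyte genes, of which 5 fell, it went from 259.6 to 2524 CPM to 39.4 to 117 CPM. For 5 endothelial genes, all of which fell, it went from 242.7 to 502.9 CPM to 27.1 to 86.6 CPM. For 5 skeletal muscle genes, of which 1 fell, it went from 2.80 to 467.4 CPM to 2.51 to 44.2 CPM. The other way, 8 squamous keratinocyte genes summed to 32.9 to 73.6 CPM in DMSO, where Sprr2d and Hrnr were at 0, and to 9666 to 33646 CPM at 3 µM. The sum of 11 proliferation genes was 227.8 to 277.4 CPM in DMSO and 687.2 to 1828 CPM at 3 µM, and all 8 squamous and all 11 proliferation genes rose. The part of these cell types in the results below was not tested, and in bulk RNA a change in the number of cells of a type and a change in RNA per cell cannot be told apart.

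At 3 µM, 8 of the 10 genes rose against DMSO and 0 fell (edgeR quasi-likelihood test, adjusted p under 0.05). The background was high, since 57.5% of all genes tested were called at this dose and 29.9% were called higher. The called rises ran from 2.26-fold for Hk2 to 5.86-fold for Pgk1, while Hk1 (1.24-fold) and Aldoa (1.41-fold) did not pass. The median log2 fold change of the 10 genes was 1.56, beside −0.03 over all genes tested. In each of the 10 genes every 3 µM library lay above every DMSO library, which held for 30.9% of all genes tested. With library size alone as the scaling, the median over all genes at 3 µM moved to −0.23, and the same number, 8 of the 10, was called. Of all genes, 57.4% were called with this scaling and 22.2% were called higher.

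**Figure D1:**
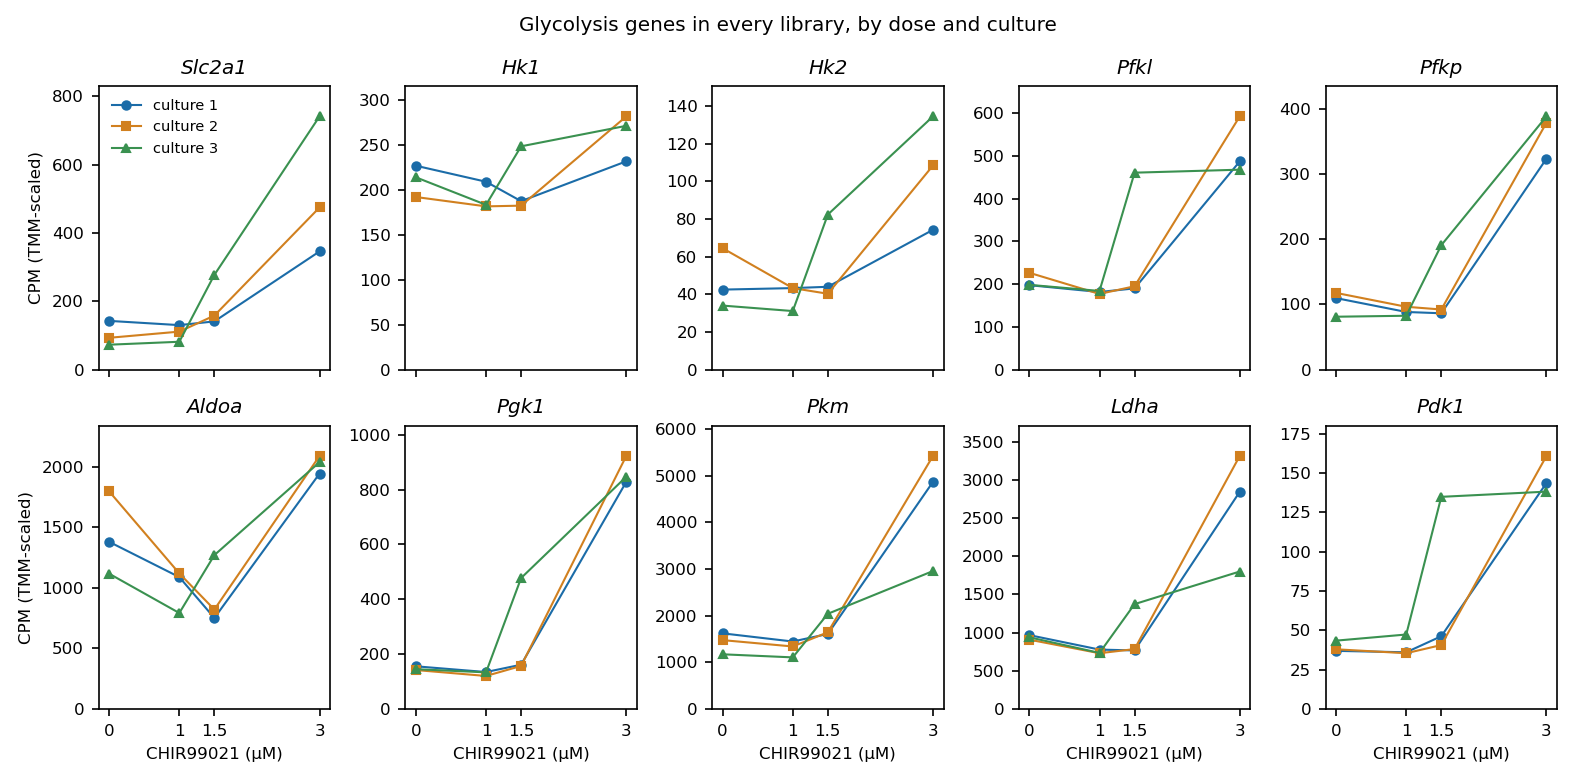
TMM-scaled counts per M counts (CPM, vertical axis, linear from 0) of each of the 10 genes against CHIR99021 in µM, with DMSO at 0 and 1 line per culture. At 1 µM 9, 9 and 7 of the 10 genes are below DMSO in cultures 1, 2 and 3, most by a small margin. The widest drops there are those of Aldoa in cultures 2 and 3 (0.62 and 0.71 times DMSO) and of Hk2 in culture 2 (0.67 times). Aldoa in culture 1 (0.79 times), Pfkl in culture 2 (0.78 times) and Ldha in all 3 cultures (0.80, 0.80 and 0.78 times) follow. Culture 3 (triangles) is above its DMSO value in all 10 genes at 1.5 µM, and all 3 cultures are above DMSO at 3 µM.

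Slc2a1 (ENSMUSG00000028645, chr4:119108711-119137330, plus strand), which encodes the glucose carrier GLUT1, had 142.4, 92.9 and 72.7 CPM in the DMSO libraries of cultures 1, 2 and 3. It had 130.0, 111.0 and 81.3 CPM at 1 µM, and 140.9, 157.9 and 277.1 CPM at 1.5 µM. At 3 µM it reached 345.7, 474.4 and 740.9 CPM. Culture 3 thus started lowest and ended highest, and the 3 µM libraries did not overlap those of any other group. Slc2a1 rose 5.06-fold at 3 µM, a log2 fold change of 2.34 ± 0.377 (SE, edgeR adjusted p = 0.000507). Within cultures the ratio to the culture's own DMSO library was 2.43, 5.11 and 10.2.

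The hexokinases differed in size of change. Hk1 (ENSMUSG00000037012, chr10:62268855-62379908, minus strand), the isoenzyme found in most tissues, had 226.7, 191.9 and 213.8 CPM in DMSO and 231.6, 281.6 and 271.1 CPM at 3 µM. Between these it had 208.9, 181.5 and 183.2 CPM at 1 µM and 187.3, 182.3 and 248.3 CPM at 1.5 µM. The lowest 3 µM library of Hk1 was just above the highest DMSO library, and the log2 fold change of 0.31 ± 0.133 did not pass (edgeR adjusted p = 0.0675). It passed without the 1.5 µM library of culture 3 (edgeR adjusted p = 0.0263).

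Hk2 (ENSMUSG00000000628, chr6:82725025-82774454, minus strand), the more regulated isoenzyme, had 42.5, 64.5 and 34.0 CPM in DMSO and 43.3, 43.3 and 31.1 CPM at 1 µM. It had 44.0, 40.3 and 82.4 CPM at 1.5 µM and 74.3, 108.5 and 134.6 CPM at 3 µM. At 1.5 µM cultures 1, 2 and 3 had 1.03, 0.625 and 2.42 times their DMSO level, and the library of culture 3 overlapped the 3 µM group. Hk2 rose 2.26-fold at 3 µM (log2 1.17 ± 0.336, edgeR adjusted p = 0.0129). The call was lost without the DMSO library of culture 3 (adjusted p = 0.0582, edgeR) or the 3 µM library of culture 3 (adjusted p = 0.0506, edgeR).

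Pfkl and Pfkp encode the liver and platelet types of phosphofructokinase, and both rose at 3 µM. Pfkl (ENSMUSG00000020277, chr10:77986947-78010083, minus strand) had 197.5, 226.5 and 198.3 CPM in DMSO and 181.5, 177.0 and 184.0 CPM at 1 µM. At 1.5 µM it had 190.0 and 195.0 CPM in cultures 1 and 2 but 460.9 CPM in culture 3, close to the 487.3, 592.7 and 467.9 CPM of the 3 µM libraries. The 1 µM libraries all lay below the DMSO libraries by a small margin. The same order without overlap was seen for Pgk1 and Ldha, and for 1266 of all 15316 genes tested. The rise at 3 µM was 2.49-fold (log2 1.31 ± 0.295, edgeR adjusted p = 0.00357), and without culture 2 in any group the adjusted p was 0.0550.

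Pfkp (ENSMUSG00000021196, chr13:6579768-6648777, minus strand) had 109.8, 117.8 and 81.2 CPM in DMSO, 88.5, 96.5 and 82.7 CPM at 1 µM, and 86.5, 92.3 and 191.2 CPM at 1.5 µM. At 3 µM its libraries had 324.2, 379.5 and 389.2 CPM, well clear of all others. The rise was 3.54-fold (log2 1.82 ± 0.280, edgeR adjusted p = 0.000382). An exon of Pfkp overlaps Pitrm1 on the opposite strand in GENCODE M21, and whether strand was used in counting is not given in the sources used here. Pitrm1 had a log2 fold change of 0.29 at 3 µM (edgeR adjusted p = 0.0550, and 0.0185 with the replicate block), far smaller than that of Pfkp.

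Aldoa (ENSMUSG00000030695, chr7:126795234-126800751, minus strand) encodes the main aldolase of muscle and many other tissues, which splits fructose 1,6-bisphosphate. It had 1379.6, 1795.6 and 1116.8 CPM in DMSO, then 1088.9, 1119.2 and 792.4 CPM at 1 µM. It had 751.6, 821.1 and 1270.2 CPM at 1.5 µM and 1942.7, 2088.5 and 2037.3 CPM at 3 µM. Its log2 fold changes of −0.52 at 1 µM and −0.59 at 1.5 µM were the lowest of the 10 genes, and neither passed. At 3 µM its log2 fold change of 0.50 ± 0.230 did not pass (edgeR adjusted p = 0.0863). It passed without the DMSO library of culture 2, its highest DMSO library (log2 0.68, edgeR adjusted p = 0.0435), and without the 1.5 µM library of culture 3 (edgeR adjusted p = 0.0417). The adipocyte sum over the DMSO libraries, 5042, 8990 and 3375 CPM, had the same order over cultures as Aldoa, and its part in the result was not tested.

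Pgk1 (ENSMUSG00000062070, chrX:106187100-106203699, plus strand), phosphoglycerate kinase, had 155.9, 142.3 and 145.4 CPM in DMSO and 135.0, 120.7 and 133.9 CPM at 1 µM. At 1.5 µM it had 161.7 and 157.2 CPM in cultures 1 and 2 and 477.6 CPM in culture 3, and at 3 µM 828.3, 922.7 and 846.9 CPM. The DMSO values were tight and the 3 µM values lay above them by 5.31, 6.49 and 5.83 times within cultures 1, 2 and 3. Its rise of 5.86-fold was the largest of the 10 (log2 2.55 ± 0.374, edgeR adjusted p = 0.000288).

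Pkm (ENSMUSG00000032294, chr9:59656368-59679375, plus strand) encodes pyruvate kinase, whose PKM1 and PKM2 forms arise by splicing and are not separated by counts per gene. It had 1621.7, 1476.5 and 1173.1 CPM in DMSO, 1446.8, 1340.6 and 1107.0 CPM at 1 µM, and 1608.9, 1644.9 and 2040.6 CPM at 1.5 µM. At 3 µM it had 4866.1, 5420.8 and 2956.1 CPM. Culture 3 was the highest library at 1.5 µM and the lowest at 3 µM. The rise was 3.10-fold (log2 1.63 ± 0.229, edgeR adjusted p = 0.000205).

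Ldha (ENSMUSG00000063229, chr7:46841475-46855627, plus strand), the lactate dehydrogenase subunit that prevails in glycolytic tissues, had 967.4, 908.0 and 938.8 CPM in DMSO, 778.3, 730.8 and 734.7 CPM at 1 µM, and 767.2, 784.8 and 1373.3 CPM at 1.5 µM. At 3 µM it had 2842.8, 3311.9 and 1799.7 CPM, again with culture 3 lowest. Ldha rose 2.83-fold (log2 1.50 ± 0.256, edgeR adjusted p = 0.000704). In the 3 µM library of culture 3 the squamous and proliferation sums were also lowest, at 9666 against 33646 and 30969 CPM and at 687.2 against 1500 and 1828 CPM in cultures 1 and 2. The epithelial sum was lowest there too, at 16283 against 29911 and 33005 CPM, and the fibroblast sum was highest, at 4569 against 175.3 and 971.6 CPM. The part of these in the result was not tested.

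Pdk1 (ENSMUSG00000006494, chr2:71873224-71903858, plus strand), the kinase that restrains pyruvate dehydrogenase, had 37.0, 38.0 and 43.5 CPM in DMSO and 36.1, 35.5 and 47.4 CPM at 1 µM. At 1.5 µM it had 46.3 and 40.7 CPM in cultures 1 and 2 and 134.9 CPM in culture 3. The 3 µM libraries had 143.7, 160.9 and 138.2 CPM, so culture 3 was nearly as high at 1.5 µM as at 3 µM. Pdk1 rose 3.74-fold (log2 1.90 ± 0.390, edgeR adjusted p = 0.00212).

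**Figure D2:**
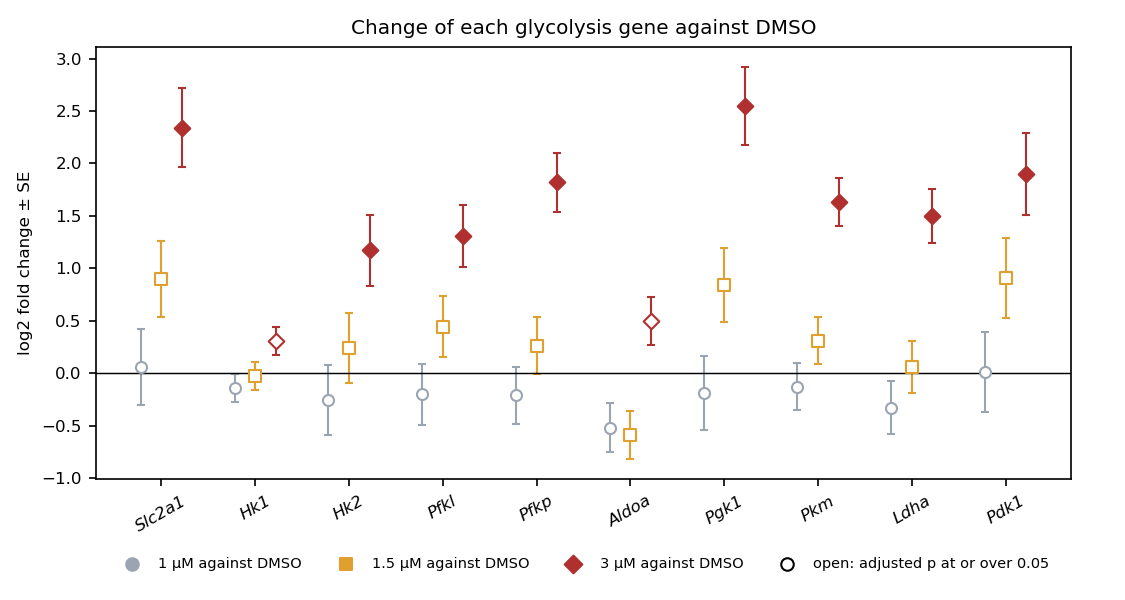
Log2 fold change of each gene against DMSO at 1, 1.5 and 3 µM from the edgeR fit, with SE as bars and filled symbols where the adjusted p was under 0.05. Filled symbols occur at 3 µM alone, for 8 genes, with Pgk1 highest at 2.55 and Hk2 lowest at 1.17.

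At the lower doses 0 of the 10 genes passed in edgeR, in comparisons that share the 3 DMSO libraries with that at 3 µM. At 1 µM 0 of 10 were called by edgeR, by DESeq2 or with the replicate block (0 in each), where 0.242%, 3.17% and 5.61% of all genes were called in turn, and 1 (Aldoa) had an unadjusted p under 0.05. Their log2 fold changes at 1 µM ran from −0.52 for Aldoa to 0.06 for Slc2a1, with a median of −0.20. At 1.5 µM 0 of 10 were called by edgeR, against 27.3% of all genes, and 0 with the replicate block, against 46.7%, with 4 genes at an unadjusted p under 0.05. These were Slc2a1 (log2 0.90, edgeR adjusted p = 0.0906), Pdk1 (log2 0.91, edgeR adjusted p = 0.104), Pgk1 (log2 0.84, edgeR adjusted p = 0.105) and Aldoa (log2 −0.59, edgeR adjusted p = 0.0807). DESeq2, which called 32.9% of all genes, called 2 of them, Slc2a1 higher (log2 0.87, DESeq2 adjusted p = 0.0480) and Aldoa lower (log2 −0.62, DESeq2 adjusted p = 0.0272). Between 1.5 and 1 µM edgeR called 0 of 10, against 5.43% of all genes, while 3 had an unadjusted p under 0.05, DESeq2 called 1 (10.7% of all genes) and the replicate block called 0 (21.9% of all genes).

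The cultures parted at 1.5 µM. In culture 3 all 10 genes were above that culture's DMSO library, by a log2 ratio of 0.19 (Aldoa) to 1.93 (Slc2a1) with a median of 1.23. In culture 1, 3 of 10 genes were above and 7 below, with a median of −0.04, and in culture 2, 4 were above and 6 below, with a median of −0.14. At 1 µM 9, 9 and 7 of 10 genes were below DMSO in cultures 1, 2 and 3, with medians of −0.15, −0.27 and −0.11. At 3 µM all 10 genes were above DMSO in each culture, with medians of 1.43, 1.78 and 1.50. Over all genes tested these within-culture medians were −0.03 to 0.01.

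Several values at 1.5 µM turned on single libraries or cultures. Without culture 3 in any group, Aldoa was lower at 1.5 µM (log2 −1.0, edgeR adjusted p = 0.00422), as was Pfkp (log2 −0.33, edgeR adjusted p = 0.0408). Leaving out only the 1.5 µM library of culture 3 gave Aldoa a log2 fold change of −0.86 (edgeR adjusted p = 0.0199). Without the 1.5 µM library of culture 2, Pgk1 (log2 1.11, edgeR adjusted p = 0.0485) and Pdk1 (log2 1.20, edgeR adjusted p = 0.0428) passed. Slc2a1 passed without the DMSO library of culture 1 (log2 1.22, edgeR adjusted p = 0.0474), and Aldoa without that of culture 3 (log2 −0.79, edgeR adjusted p = 0.0458). The 1.5 µM library of culture 3 also stood apart in hypoxia-responsive genes, with Egln3 at 235.3 CPM against 6.43 and 9.91 CPM in cultures 1 and 2, and Car9 at 12.1 against 2.1 and 2.0 CPM. Hif1a itself was at 263.8 CPM there, against 237.4 and 231.1 CPM. At this dose the squamous sum was 4917, 5254 and 2390 CPM, the proliferation sum 897.5, 866.9 and 779.7 CPM, and the fibroblast sum 552.9, 2129 and 11649 CPM in cultures 1, 2 and 3. The part of these in the difference between cultures was not tested.

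**Figure D3:**
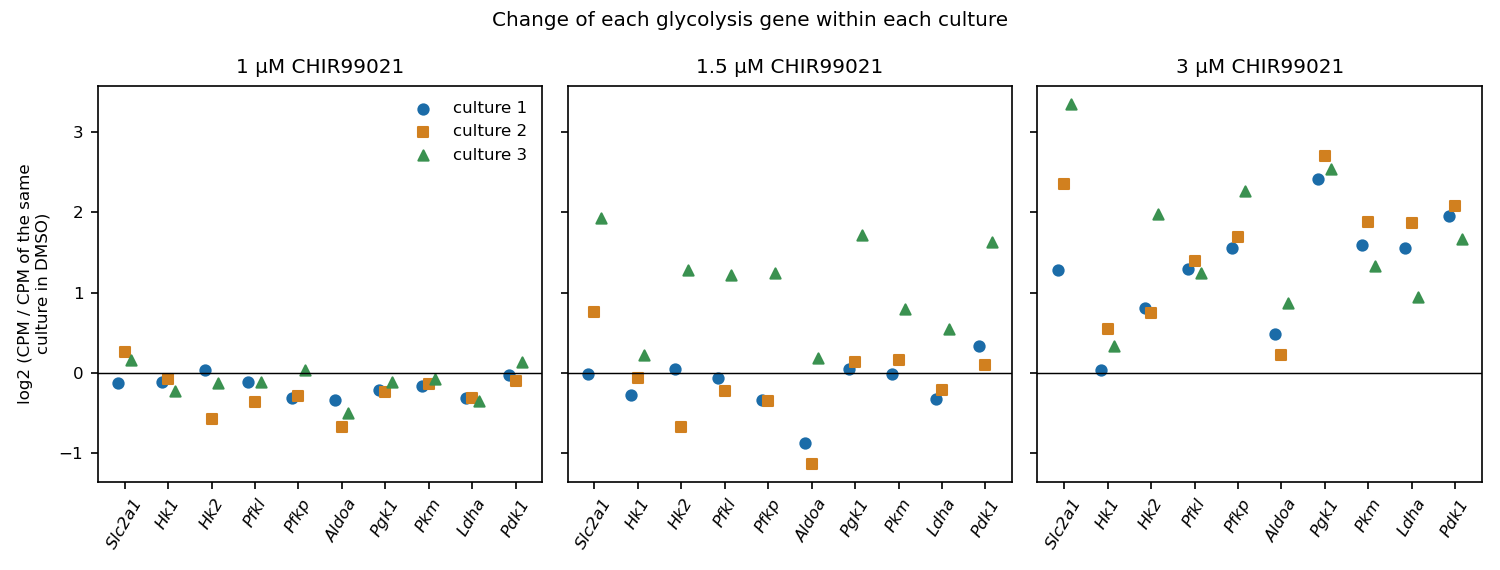
Log2 ratio of each gene's CPM to that of the same culture in DMSO, at 1, 1.5 and 3 µM, with a symbol per culture. At 1.5 µM the triangles of culture 3 lie above 0 for all 10 genes, with a median of 1.23, while cultures 1 and 2 have medians of −0.04 and −0.14.

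From 1.5 to 3 µM 7 of 10 genes rose and 0 fell, against 29.7% of all genes called and 17% called higher. Pgk1 (log2 1.71), Pfkp (log2 1.56), Slc2a1 and Ldha (log2 1.44 each), Pkm (log2 1.32), Aldoa (log2 1.09) and Pfkl (log2 0.87) passed. Hk1 (log2 0.34, edgeR adjusted p = 0.0752), Hk2 (log2 0.93, edgeR adjusted p = 0.0600) and Pdk1 (log2 1.00, edgeR adjusted p = 0.0720) passed with the replicate block (edgeR adjusted p = 0.0480, 0.0471 and 0.0169), so that all 10 were called, where the block called 46.7% of all genes. DESeq2 also called 10, and 35% of all genes. The count was 10 without culture 3 (33.7% of all genes) or without its 1.5 µM library (21.8%). It was 0 without culture 1 and 0 without culture 2, where calls over all genes dropped to 7.57% and 2.25%.

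Fitted as a slope on dose over the 12 libraries, 8 of 10 genes rose, against 58.2% of all genes called and 30.2% called rising. The slopes in log2 units per µM were 0.90 for Pgk1, 0.82 for Slc2a1, 0.68 for Pdk1, 0.65 for Pfkp, 0.58 for Pkm, 0.54 for Ldha, 0.47 for Pfkl and 0.43 for Hk2. Hk1 (0.12, edgeR adjusted p = 0.0537) and Aldoa (0.19, edgeR adjusted p = 0.147) did not pass. The slope of Hk2 was not called without culture 3 (edgeR adjusted p = 0.0585). That of Hk1 passed without the DMSO library of culture 1 (edgeR adjusted p = 0.0259), the 1.5 µM library of culture 1 (0.0491) or of culture 2 (0.0469), or culture 1 as a whole (0.0473), and that of Aldoa without the DMSO library of culture 2 (0.0389). A straight line hides the shape of the response in cultures 1 and 2, where the medians of the 10 genes were still at −0.04 and −0.14 at 1.5 µM.

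A difference of slope between cultures was called for 0 of the 10 genes and 0% of all genes by edgeR, where 1230 genes had an unadjusted p under 0.05. The DESeq2 likelihood-ratio test called 231 genes and 0 of the 10. Slc2a1 had the widest range, with slopes of 0.45, 0.81 and 1.18 in cultures 1, 2 and 3 (unadjusted p = 0.0524 and adjusted p = 0.629, edgeR). For Pfkl the slopes were 0.46, 0.50 and 0.47, although its 1.5 µM libraries had 190.0, 195.0 and 460.9 CPM. The test compares straight lines with 1 library per culture and dose, so it can miss a parting of cultures at 1.5 µM alone.

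Per kb of exon, Aldoa was the most abundant of the 10 in DMSO, at 491.5 ± 117.6 CPM per kb (SD, n = 3). Pkm (284.7 ± 45.8) and Ldha (283.4 ± 8.97) followed at the same level. Pgk1 stood alone at 65.9 ± 3.18, then came Pfkl (31.1 ± 2.47), Slc2a1 (29.3 ± 10.2) and Hk1 (24.7 ± 2.06), whose ranges were near or overlapping. Hk2 (7.88 ± 2.63) and Pfkp (7.68 ± 1.43) did not differ beyond their spread, and Pdk1 was lowest at 5.07 ± 0.449. At 3 µM Pkm (882.7 ± 258.5), Ldha (801 ± 233.9) and Aldoa (694.9 ± 25.4) could not be ordered beyond their spread. Pgk1 (385.9 ± 22.3) and Slc2a1 (148.4 ± 57.5) came next, ahead of Pfkl (77.3 ± 10.1), Hk1 (30.6 ± 3.09) and Pfkp (27.2 ± 2.62). Pdk1 (19.0 ± 1.52) and Hk2 (17.7 ± 5.06) were lowest. This order depends on the exon length used, which joins all annotated exons and was 13401 bases for Pfkp and 5969 for Hk2. Before division by length, Pfkp had 102.9 ± 19.2 CPM and Hk2 47.0 ± 15.7 CPM in DMSO. Together the 10 genes took 0.506%, 0.491% and 0.407% of all counts in the DMSO libraries and 1.054%, 1.159% and 0.898% in the 3 µM libraries.

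These levels depend on how reads that match more than 1 place were counted, which is not given in the sources used here. Gapdh, the step between aldolase and Pgk1 and a gene with many near-identical copies in the mouse genome, had only 44 to 128 counts per library. Its log2 fold change at 3 µM of 0.65 did not pass (edgeR adjusted p = 0.227), and it is read here as uncertain. The copies of Ldha and Aldoa in the table, Ldha-ps, Ldha-ps2 and Aldoart1, had at most 4 counts in any library.

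The balance of isoenzymes was read as a ratio of counts within each library, as a description with no test. Ldha over Ldhb, the subunit of heart-type lactate dehydrogenase, was 8.81, 5.95 and 9.54 in the DMSO libraries and 98.5, 83.4 and 73.7 in the 3 µM libraries. At 1.5 µM it was 7.88, 7.97 and 22.7. Ldhb itself fell at 3 µM (log2 −1.95, edgeR adjusted p = 0.000157). Pdk1 over Pdk2, another pyruvate dehydrogenase kinase, went from 0.522, 0.453 and 0.663 in DMSO through 1.07, 0.904 and 2.83 at 1.5 µM to 6.09, 7.53 and 6.59 at 3 µM. Pdk2 fell at 3 µM (log2 −1.74, edgeR adjusted p = 2.08e-06). Both ratios were without overlap between DMSO and 3 µM. Hk2 over Hk1 was 0.228 ± 0.0949 in DMSO and 0.401 ± 0.0888 at 3 µM (SD, n = 3), with overlapping libraries. Pfkp over Pfkl was 0.495 ± 0.0763 and 0.712 ± 0.104, without overlap.

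**Figure D4:**
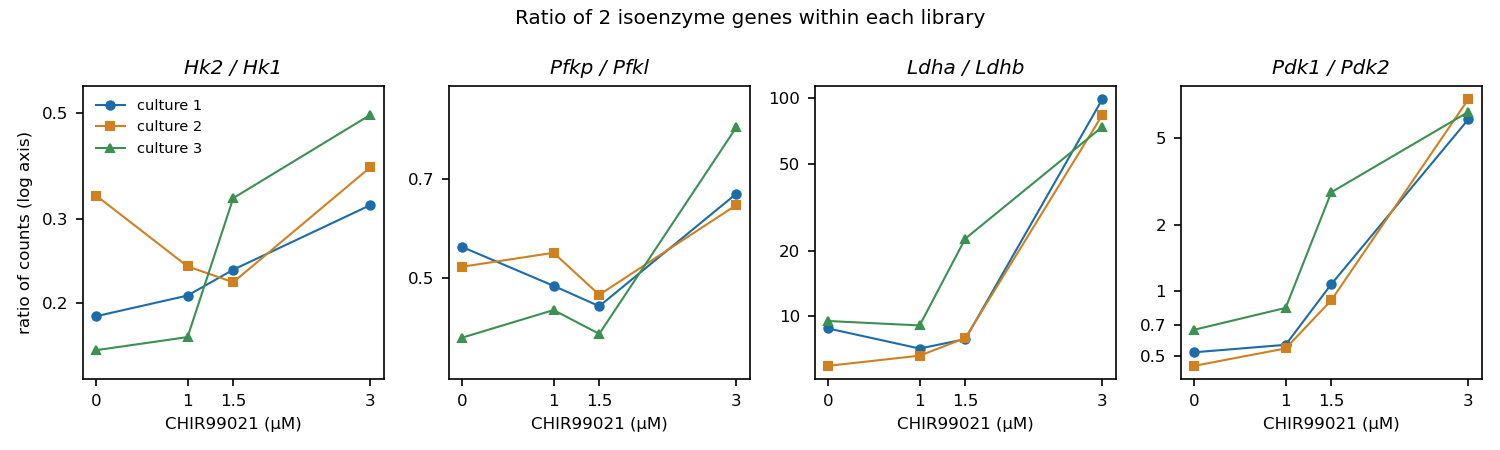
Ratio of counts of paired isoenzyme genes in each library (log axis) against CHIR99021 in µM, DMSO at 0, 1 line per culture. Ldha over Ldhb averages 8.10 in DMSO and 85.2 at 3 µM, and Pdk1 over Pdk2 averages 0.546 and 6.74, while the other ratios move far less.

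The genes around these 10 were followed in lists of 97 further genes, of which 95 were in the table and 90 were tested. At 3 µM 24 of the 90 rose, 29 fell and 37 did not pass, and their median log2 fold change was −0.18, while 57.5% of all genes tested were called. At 1 µM edgeR called 0 of 90, DESeq2 called 3 (3.17% of all genes), and the replicate block called 1 higher and 14 lower (5.61% of all genes). At 1.5 µM 6 rose and 20 fell, against 27.3% of all genes called, or 10 and 36 with the replicate block, against 46.7%. Taken in either direction, both shares of the 90 were near those of all genes, as at 3 µM. In direction they differed at 1.5 µM, where more of the 90 fell than rose. Of all 15316 genes tested, 2364 rose and 1813 fell there, and with the replicate block 22.3% of all genes were called higher. The count at 1.5 µM was 4 without culture 2 (2.98% of all genes), 10 without culture 1 (9.94%), 42 without culture 3 (30.1%) and 15 without the DMSO library of culture 2 (15.7%). That at 3 µM was 32 without culture 2, where 31.1% of all genes were called.

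**Figure D5:**
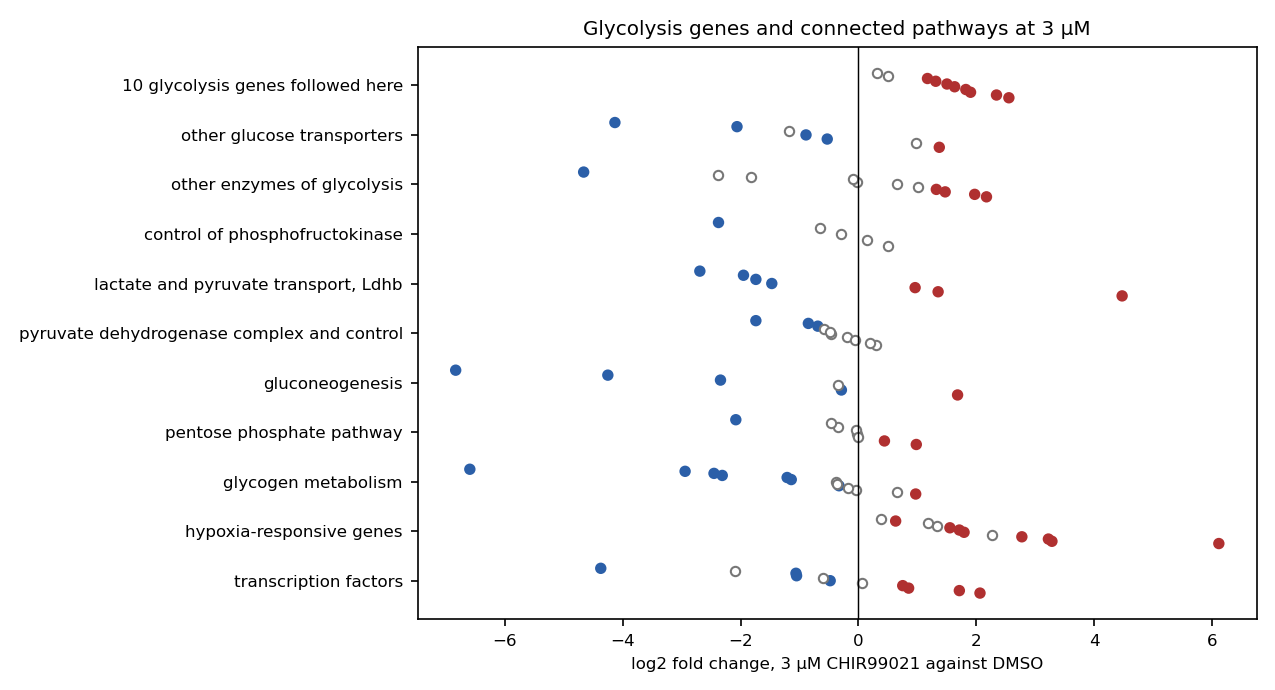
Log2 fold change at 3 µM of the 10 genes (top) and of 90 further genes in 10 lists, 1 point per gene, red where called higher, blue where called lower and open where not called (edgeR). The 10 genes and the hypoxia-responsive list have called points on the right only, and the other lists spread over both sides or to the left.

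Of 11 other enzymes of glycolysis, 4 rose, 1 fell and 6 did not pass at 3 µM, while 57.5% of all genes were called. Enolase Eno1 (log2 2.17, edgeR adjusted p = 4.03e-05), phosphoglycerate mutase Pgam1 (log2 1.97), glucose phosphate isomerase Gpi1 (log2 1.47) and triosephosphate isomerase Tpi1 (log2 1.32) were the ones that rose. Eno1 also rose at 1.5 µM (log2 0.97, edgeR adjusted p = 0.0112), a call lost without culture 1 (edgeR adjusted p = 0.0657) or culture 2 (edgeR adjusted p = 0.112). Pfkm, the muscle phosphofructokinase, had like means, 43.8 ± 11.8 CPM in DMSO and 42.9 ± 1.57 CPM at 3 µM (SD, n = 3). Its cultures 1, 2 and 3 went from 32.8, 42.4 and 56.3 CPM to 42.9, 44.4 and 41.3 CPM, so culture 3 fell while the others rose. Hk3, a hexokinase of leukocytes, fell (log2 −4.66, edgeR adjusted p = 0.0144) from 1.78, 11.1 and 27.6 CPM, in the same order over cultures as the macrophage sum of 259.6, 1332 and 2524 CPM, whose part was not tested. Its call was lost without the 3 µM library of culture 1 (edgeR adjusted p = 0.0511), without culture 2 in any group (0.126) or without culture 3 in any group (0.0555).

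Of 7 other carrier genes listed under glucose entry, 1 rose and 4 fell at 3 µM, while 57.5% of all genes were called. What each of them carries in these cells was not measured. The sodium-glucose carrier Slc5a1 rose (log2 1.37), while the insulin-regulated carrier Slc2a4 (log2 −4.13) and Slc2a12 (log2 −2.06) fell. Slc2a8 (log2 −0.89) and Slc2a9 (log2 −0.53) fell too, and are named because they complete the count. At 1.5 µM Slc2a9 was higher than in DMSO (log2 0.96, edgeR adjusted p = 0.00437), a call lost without culture 2 (edgeR adjusted p = 0.102). Its fall at 3 µM was not called without the DMSO library of culture 1 (edgeR adjusted p = 0.112) or of culture 3 (0.0637), the 3 µM library of culture 2 (0.0696) or of culture 3 (0.0764), or any whole culture (0.0567, 0.0632 and 0.221). The adipocyte sum fell over the same doses, as given above, and its part in the fall of Slc2a4 was not tested.

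Genes for lactate and pyruvate traffic were all called at 3 µM, 3 higher and 4 lower of 7, while 57.5% of all genes were called. The lactate carriers Slc16a3 (MCT4, log2 4.47, edgeR adjusted p = 0.00505) and Slc16a1 (MCT1, log2 1.35) rose. So did Bsg (log2 0.96), the chaperone of both carriers. Slc16a3 had 3.60, 6.09 and 16.4 CPM in DMSO, 11.0, 14.4 and 117.2 CPM at 1.5 µM, and 152.5, 208.9 and 220.3 CPM at 3 µM, with culture 3 again apart at 1.5 µM. Slc16a7 (MCT2, log2 −2.69), Ldhb and the mitochondrial pyruvate carrier subunits Mpc1 (log2 −1.74) and Mpc2 (log2 −1.47) fell. Of 10 genes of the pyruvate dehydrogenase complex and its other kinases and phosphatases, 0 rose and 3 fell, against 57.5% of all genes called. Those that fell were Pdk2, the phosphatase Pdp1 (log2 −0.85) and the subunit Pdhx (log2 −0.69). With the replicate block 1 rose and 5 fell, against 68.9% of all genes called. Pdhx was not called without the DMSO library of culture 2 (edgeR adjusted p = 0.129), the 3 µM library of culture 3 (0.0873), or without culture 1 (0.0736) or culture 2 (0.207) in any group.

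In gluconeogenesis, the route that runs against glycolysis, 1 of 6 genes rose and 4 fell at 3 µM. Beside each count in this paragraph stands a share of 57.5% of all genes called, or 68.9% with the replicate block. Phosphoenolpyruvate carboxykinase Pck1 (log2 −6.83, from 35.2 ± 20.3 to 0.30 ± 0.156 CPM), pyruvate carboxylase Pcx (log2 −4.25), fructose bisphosphatase Fbp1 (log2 −2.34) and the phosphatase G6pc3 (log2 −0.29, edgeR adjusted p = 0.0440) fell, and Fbp2 (log2 1.68) rose. G6pc3 had an adjusted p between 0.0553 and 0.218 (edgeR) without any of 8 single libraries, without culture 1 or without culture 2. Of 13 glycogen genes 1 rose and 7 fell. The gene with the symbol Pgm1 in the deposited table (ENSMUSG00000029171) rose (log2 0.97). Phosphorylase kinase Phka1 (log2 −2.45) and muscle phosphorylase Pygm (log2 −2.94) fell, and the liver-type synthase Gys2 fell from 66, 43 and 31 counts to 1, 0 and 0 (edgeR adjusted p = 0.000364). Pygm was not called without the DMSO library of culture 3 (log2 −1.77, edgeR adjusted p = 0.0672), where the skeletal muscle sum was 467.4 CPM against 2.80 and 143.5 CPM in the other two, and its part was not tested. Of 8 pentose phosphate genes, Pgls (log2 0.98) and Rpe (log2 0.44) rose and H6pd (log2 −2.08) fell, or 2 and 3 with the replicate block. Of 5 genes that set fructose 2,6-bisphosphate, the activator of phosphofructokinase, 0 rose and 1, Pfkfb1 (log2 −2.38), fell, or 1 and 1 with the replicate block.

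Hypoxia-responsive genes outside glycolysis rose in 8 of 12 cases and fell in 0 at 3 µM, with a median log2 fold change of 1.75, while 29.9% of all genes were called higher. With the replicate block 10 were higher, and 34.1% of all genes. The prolyl hydroxylase Egln3 (log2 6.11, edgeR adjusted p = 0.00315) went from 7.07, 9.04 and 11.4 CPM to 381.4, 572.0 and 949.7 CPM. Ankrd37 (log2 3.28, edgeR adjusted p = 0.0368) and the carbonic anhydrase Car9 (log2 3.22) rose as well. Ankrd37 was not called without the DMSO library of culture 1 (edgeR adjusted p = 0.0984) or 2 (0.0930), or the 3 µM library of culture 2 (0.0607) or 3 (0.134, at a log2 fold change of 2.21).

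Of 11 transcription factors known to act on glycolysis genes, 4 rose and 4 fell at 3 µM, while 57.5% of all genes were called. Hif1a went from 204.0, 227.2 and 189.4 CPM to 701.2, 770.4 and 564.8 CPM, a log2 rise of 1.71 (edgeR adjusted p = 3.77e-06). Myc rose at 3 µM (log2 2.06, edgeR adjusted p = 2.19e-05) and already at 1.5 µM (log2 1.58, edgeR adjusted p = 0.000624), with 133.2, 109.7 and 162.1 CPM against 40.7, 40.4 and 54.2 CPM in DMSO. The level of Hif1a mRNA says nothing about HIF1 protein, which is controlled mainly by degradation. Trp53 (log2 0.75) and Esrra (log2 0.85) completed the rises. Ppara (log2 −4.37), Epas1 (log2 −1.06), Ppargc1a (log2 −1.05) and Mlxip (log2 −0.48) fell.

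Without culture 2 in any group, several calls at 3 µM in these lists ended (edgeR adjusted p, in each case). They were Slc5a1 (0.0939), Slc2a8 (0.0962), Slc16a3 (0.0810), Bsg (0.0575), Pck1 (0.0588), Fbp2 (0.0806), Pygm (0.122), Rpe (0.0868), H6pd (0.105), Car9 (0.0503), Ankrd37 (0.198) and Ppargc1a (0.143). Rpe was also lost without culture 1 (edgeR adjusted p = 0.0694). These fits had no replicate block. With the block and all 12 libraries, each of these genes was called at 3 µM, where 68.9% of all genes were called. Their edgeR adjusted p ran from 1.29e-05 for Pck1 to 0.0053 for Fbp2 and Ppargc1a. Hk3 (8.87e-06), Slc2a9 (0.0042), Pdhx (0.00155) and G6pc3 (0.00464), whose losses are given above, were called with the block too. Some called values moved by more than 1.5 times without a single library. Without the DMSO library of culture 3 the log2 fold change was 5.32 for Slc16a3, −3.61 for Hk3 and 4.16 for Ankrd37. Without the 3 µM library of culture 3 it was −2.80 for H6pd, and without that of culture 2 it was −4.99 for Ppara and −3.53 for Slc16a7.

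Among the 10 genes, log2 CPM over the 12 libraries correlated with Pearson's r from 0.639 (Aldoa and Pdk1) to 0.980 (Pfkl and Pgk1). For each gene the most alike of 12429 other genes was also found over the 12 libraries, which share the dose. For Pgk1 this was Gpi1 (r = 0.993), the only glycolysis enzyme among them. For Pdk1 it was Egln3 (r = 0.981), for Pfkp Egln1 (r = 0.985) and for Slc2a1 the MYC antagonist Mxi1 (r = 0.975). For Ldha it was Higd1a (r = 0.986), for Pkm Aasdhppt (r = 0.988), for Pfkl Grhpr (r = 0.988), for Aldoa Clybl (r = 0.964), for Hk2 Ero1l (r = 0.946) and for Hk1 Espn (r = 0.931). These correlations describe 12 libraries of 4 groups and carry no test.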

How the data were processed

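Polyadenylated RNA of 12 libraries was sequenced on a HiSeq instrument from a stranded preparation, per the labels' protocols. The authors deposited raw read counts per gene and, in a second table, log2 values. Each deposited log2 value is that of the count scaled to a total of 10 M plus 1 (0 differed by more than 1e-06), so only the counts were used. The submitters' processing notes name TopHat2 2.1, Bowtie 1.1.0, HTSeq, DESeq2 and the builds GRCm38 and mm10, with no role or order. The annotation release and the treatment of strand and of reads with several matches are not given in the sources used here. Of 25210 identifiers 24902 are in GENCODE M21 (GRCm38), which gave exon lengths and overlaps. Coordinates are those of the deposited table.

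Genes were filtered with filterByExpr on the 4 groups and scaled by TMM. They were fitted with a mean per group over all 12 libraries with edgeR 4.0.16 in R 4.3.3 (robust glmQLFit, then glmQLFTest, two-sided), with Benjamini-Hochberg adjustment over the 15316 genes tested and a threshold of 0.05. Slopes used dose in µM with DMSO at 0, and the culture test used culture, dose and their product. Exon length is the union of a gene's exons. The scripts were tested on simulated counts. Replicate libraries differed by more than sampling noise (chi-square per degree of freedom 12.8 or more), so none was merged. No molecular identifiers are described.

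The replicate number is the animal. Deviations from group means correlated between libraries of one number in all 18 pairs (0.177 to 0.840), and the fit with a replicate block, an alternative here, had a biological coefficient of variation of 0.156 against 0.305. Its values are given for some of the results, and not for every call. Changed calls of named list genes at 1 and 1.5 µM are mostly left out above. At 1.5 µM the edgeR adjusted p of Slc16a3 went from 0.0930 to 0.0122 with the block. That of Ldhb went from 0.169 to 0.00605 at this dose, and that of Slc2a4 from 0.395 to 0.0275 at 1 µM. Other alternatives were DESeq2 1.42.0, DESeq2 size factors, library size only, no filter, only the groups compared, and leaving out each library or culture.

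The 10 genes, the lists and the motifs were chosen with earlier results of these data known. Named from the lists are the called genes with the largest changes, at most 3 per list, and Gapdh, Ldhb, Pfkm, Tpi1, Gpi1, Eno1, Pgam1, Slc16a1, Slc16a3, Hif1a and Myc. Slc2a8, Slc2a9, Bsg, Mpc1, Mpc2, Fbp2, G6pc3, Epas1, Mlxip, Ppargc1a, Esrra, Trp53, Pgm1 and Pitrm1 were named after their values were seen. Of the 97 list genes Pklr and Ldhc were not matched in the table.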

Additional observations from a re-analysis of the deposited data

How the results depend on the processing

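Of the counts over the 10 genes, that at 3 µM stayed between 7 and 10 under every alternative run. Among all genes 31.1% to 68.9% were called there. The slope count stayed between 7 and 9, where 35.3% to 64.5% of all genes were called. The counts at 1 µM and for the difference between cultures stayed at 0, beside 0% to 5.61% and 0% to 1.51% of all genes. At 1.5 µM against DMSO the count was 2 in DESeq2 (32.9% of all genes) and 2 without replicate 3 in any group (30.1%). It was 0 to 2 without single libraries (15.7% to 32.4%). From 1 to 1.5 µM it was 1 in DESeq2 (10.7% of all genes). From 1.5 to 3 µM it was 0 without replicate 1 (7.57%) or without replicate 2 (2.25%) in any group. Of the 90 other pathway genes, 3 (DESeq2), 15 (replicate block) and 1 (without replicate 3) were called at 1 µM. The shares of all genes called were 3.17%, 5.61% and 0.773% in turn. At 1.5 µM 46 were called with the replicate block (46.7% of all genes). Without replicates 1, 2 and 3 in any group 10, 4 and 42 were called (9.94%, 2.98% and 30.1%). Without single libraries 15 to 30 were called (15.7% to 32.4%), and at 3 µM 32 without replicate 2 (31.1%). Over all genes, the share called at 1.5 µM also ranged from 2.98% (without replicate 2) to 46.7% (replicate block). Values near 0 changed sign, and in each case the cause was not tested. With the replicate block this was so for Pdk1 at 1 µM (log2 −0.00491) and Pfkm at 3 µM (log2 0.0121), with only the 2 groups compared for Pdk1 at 1 µM (log2 −0.00524), and with library size only for Hk1 at 1.5 µM (log2 0.0348). Leaving out a whole replicate number gave log2 values of −0.0262 (Slc2a1) and −0.0522 (Pdk1) at 1 µM, of 0.0892 (Hk1), −0.322 (Hk2), −0.124 (Pfkl), −0.333 (Pfkp) and −0.26 (Ldha) at 1.5 µM, and of 0.215 (Pfkm) at 3 µM. Leaving out single libraries gave log2 ranges at 1 µM of −0.157 to 0.378 for Slc2a1, −0.469 to 0.0241 for Hk2 and −0.14 to 0.0816 for Pdk1. At 1.5 µM the ranges were −0.188 to 0.048 for Hk1, −0.152 to 0.511 for Hk2, −0.105 to 0.664 for Pfkl, −0.2 to 0.465 for Pfkp and −0.271 to 0.205 for Ldha, and at 3 µM −0.203 to 0.155 for Pfkm. The replicate block changed no call of the 10 genes against DMSO or in the slope. Where a library or culture was left out, the spread of the remaining ones stood in for it. The named list genes were put through the same alternatives, a step added after the data were seen. With 3 cultures, small changes such as those of Hk1 and Aldoa lie near what the spread lets the test call.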
